A study of Homo sapiens with 4 samples.

Results

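SOCS1, SOCS2, SOCS3, SOCS4, SOCS5, CISH, PIAS1, PIAS4, PTPN2 and PTPN6 are inhibitors of cytokine signalling, and they were chosen by name for their place in the pathway, with earlier results of these arrays known, by a rule that uses no measured value. Their probes were found through the transcript accession that the array files give for every probe, since these files hold no column of gene names. All 10 had at least 1 probe, 12 probes in all, among the 19102 genes that could be named, and all 10 were among the 14556 genes whose signal was high enough to test. PC3, a human prostate cancer cell line that grows without androgen, received by lentivirus either an ALKBH3 shRNA, directed at a demethylase that repairs alkylated DNA, or a control shRNA directed at GFP. RNA was taken after selection for 48 h or 96 h, and each of the 4 combinations was measured on 1 single-colour Agilent array. Every group, the control included, therefore carries a lentivirus and went through puromycin selection, there is no array of uninfected cells, and the labels do not name which shRNA against ALKBH3 it was.

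Cytokines and interferons bind receptors that activate JAK kinases, which phosphorylate STAT transcription factors, and the STATs then switch on target genes. Among those targets are CISH, SOCS1, SOCS2 and SOCS3, whose proteins bind the receptors or the kinases and damp the signal that induced them. PIAS proteins act on STATs in the nucleus as SUMO ligases, and the phosphatases encoded by PTPN2 and PTPN6 remove phosphate from JAKs, STATs and receptors. Interferon-stimulated genes are known to be shut off again by such feedback, and whether the inhibitors move between 48 h and 96 h is the question that these arrays can address at the level of RNA.

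The promoters of CISH and SOCS1 are shown because they are the only ones among the inhibitors in which a search for 2 short motifs found a match, and because these 2 genes had the largest fold changes. RefSeq promoters of GRCh38.p14 were given for 8 of the 10 genes (11 promoters; none for SOCS2 and SOCS5), and the 250 bases before each start were searched on both strands. TTCNNNGAA, the core bound by STAT dimers, reads the same on both strands. GAAANNGAAA, or TTTCNNTTTC on the other strand, is the core of the interferon response element. The 2 motifs did not overlap in these windows. Capitals mark the matches in the sequences, which run 5′ to 3′ on the strand of the gene and end at the base before the start, at chr3:50611775-50612024 (minus strand) for CISH and chr16:11256205-11256454 (minus strand) for SOCS1.
CISH: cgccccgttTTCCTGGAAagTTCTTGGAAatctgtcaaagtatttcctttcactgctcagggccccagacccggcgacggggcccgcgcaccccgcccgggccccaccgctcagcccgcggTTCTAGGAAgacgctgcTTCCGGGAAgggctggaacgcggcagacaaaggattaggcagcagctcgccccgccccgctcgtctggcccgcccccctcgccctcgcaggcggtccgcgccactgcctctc
SOCS1: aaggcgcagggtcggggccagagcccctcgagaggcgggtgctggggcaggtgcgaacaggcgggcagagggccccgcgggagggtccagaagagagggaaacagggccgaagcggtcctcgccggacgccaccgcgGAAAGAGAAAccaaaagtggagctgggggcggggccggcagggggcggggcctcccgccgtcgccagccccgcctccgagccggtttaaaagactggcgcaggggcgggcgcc
The CISH window held 4 STAT cores, beginning 241, 230, 129 and 112 bases before the start. A STAT core was present in 6.57% of all 35116 promoters of the same length, and 4 or more were present in 5 of them (0.014%). The SOCS1 window held no STAT core and 1 interferon response core, 113 bases before the start, a motif found in 3.02% of all promoters. A match is a description of the letters and not a binding site.

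ALKBH3 itself fell past the 2-fold cutoff in the cells with its shRNA. The probe used for it read 1287 (48 h) and 1259 (96 h) intensity units on the control arrays and 409 and 452 on the ALKBH3 arrays. This is a log2 fold change of -1.63 with an SE of 0.12 (limma adjusted p = 0.253, or adjusted p = 0.0264 with the time point as a block), and a second probe gave -2.05. Between 66.96% and 70.91% of probes were well above background on an array. The arrays of each time shared a scan, so time and scan cannot be told apart, whereas the comparison of the shRNAs is made within each scan. Whether the scans came from the same slide was not determined. KRT8, KRT18, KRT19, EPCAM and CDH1, markers of epithelial cells, were well above background on all 4 arrays, and KLK3, a marker of luminal prostate cells, on none. Of these epithelial markers EPCAM was higher with ALKBH3 shRNA by 0.98 log2 units (SE 0.24, limma adjusted p = 0.418, or adjusted p = 0.0264 with the time point as a block), CDH1 by 0.74 (adjusted p = 0.0472 with the block), and the other 3 lay between -0.18 and 0.03. The part of this in the inhibitors was not tested. The luminal markers KLK2 and TMPRSS2 had 0.25 and 0.11, and the 6 leukocyte markers lay between -0.09 and 0.43, with none of these past the cutoffs.

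All 12 probes of the inhibitors were well above background on all 4 arrays, and 0 of their spots were saturated. In what follows, intensity is the background-subtracted signal of an array. Log2 fold changes are differences of log2 intensity after each array had been centred on its 75th percentile, which ranged from 2150 to 2394 intensity units over the arrays, so intensities of different arrays are not on the same scale until they are centred. Intensities of different probes are not comparable with each other.

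With ALKBH3 shRNA, CISH, SOCS1, SOCS2 and SOCS3 had more signal at both time points, on both arrays above both control arrays, by log2 fold changes of 0.35 to 0.63. In RNA from whole cultures, more RNA in each cell and more cells that carry it cannot be told apart. SOCS4, SOCS5, both PIAS genes and both phosphatases lay between -0.22 and 0.07. The median log2 fold change was 0.41 over CISH and the 5 SOCS genes and 0.04 over the 4 PIAS and PTPN genes, and 0.07 over all 10, beside -0.0030 over all 14556 genes. The nearest relatives outside the 10 had 0.02 (SOCS6), 0.06 (SOCS7), -0.08 (PIAS2) and -0.25 (PIAS3), so the higher values belong to 4 of the 8 genes of the SOCS family measured here. Complete separation of the arrays with ALKBH3 shRNA higher was seen in 4 of 10 inhibitors and in 17.4% of all genes. For SOCS1 the lower ALKBH3 array was above the higher control array by little, at -3.21 against -3.25 on the centred log2 scale. With normexp correction and in the authors' normalized values SOCS1 was not separated. There the 96 h ALKBH3 array differed from the 96 h control array by -0.0019 and 0.0018. The control itself changed by -0.1356 and -0.125 from 48 h to 96 h. The opposite separation was seen in 1 of 10, SOCS4, and in 19.1% of all genes. Signal was higher at both time points in 6 of 10 inhibitors (34.6% of all genes) and lower at both in 2 of 10 (35.6%).

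**Figure D1:**
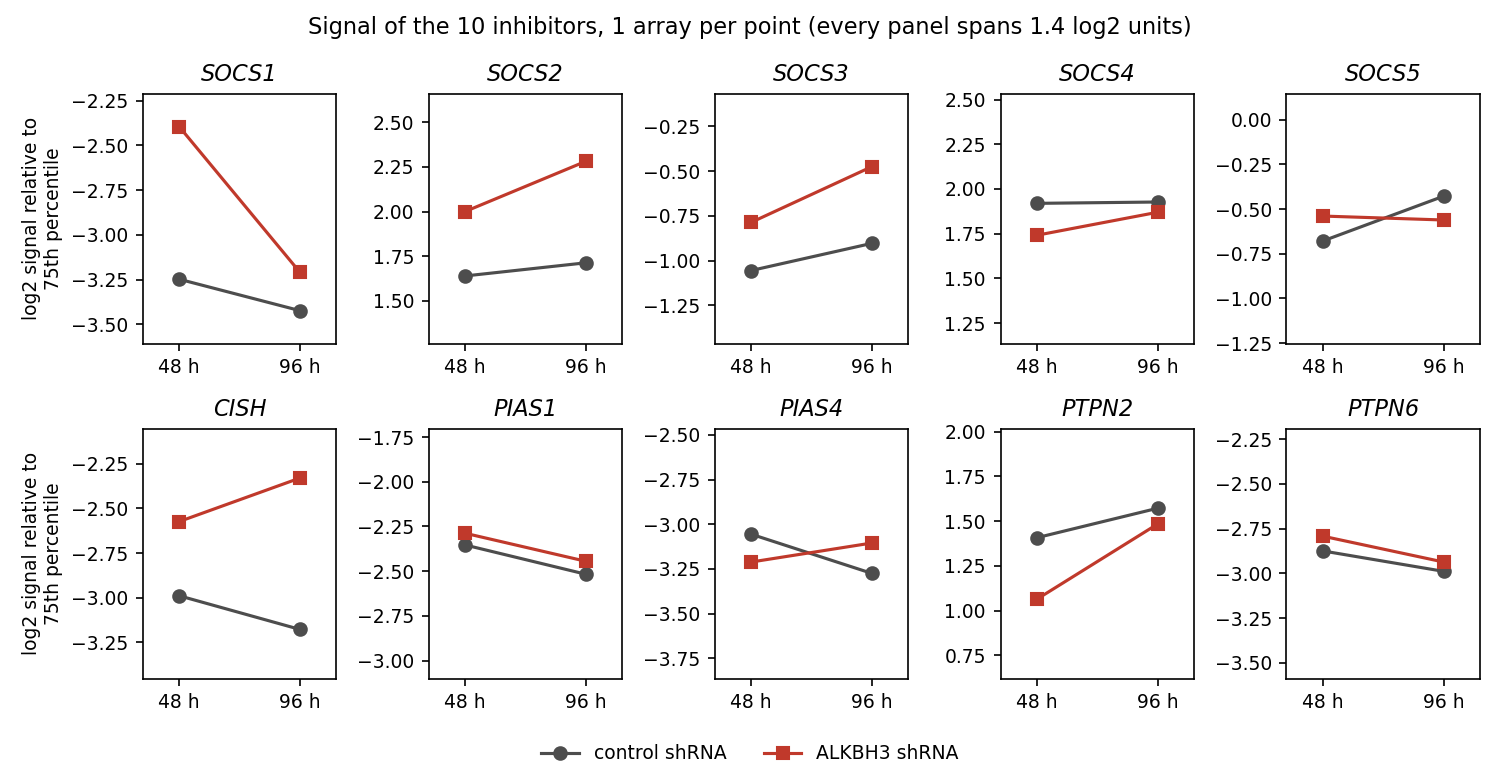
Log2 signal of each inhibitor relative to the 75th percentile of its array (vertical axis; every panel spans the same range) at 48 h and 96 h with control shRNA (circles) and ALKBH3 shRNA (squares), 1 array per point, with no error because each point is 1 array. The squares lie above the circles at both times for SOCS1, SOCS2, SOCS3 and CISH, and the SOCS1 square drops from -2.39 at 48 h to -3.21 at 96 h.

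None of the 10 passed the study's cutoffs, a change of at least 2-fold and a p under 0.05, here taken as the unadjusted limma p because the study does not say whether it was adjusted. These cutoffs were passed with higher signal by 1.04% of all genes (151) and with lower signal by 0.234% (34). No gene of the 14556 had an adjusted p below 0.05 (0%) in the limma fit, in which 1213 genes had an unadjusted p below 0.05 and the smallest adjusted p was 0.0673. At an unadjusted p below 0.05 alone, CISH and SOCS2 were higher (2 of 10, against 4.7% of all genes) and no inhibitor was lower (0 of 10, against 3.63%). The time points pair the arrays, since both arrays of a time shared a scan and the 2 shRNAs deviated together across time (r = 0.703 across genes, which are not independent replicates). With the time point as a block SOCS1 and SOCS3 joined CISH and SOCS2, which made 4 of 10 higher beside 13.4% of all genes, and none lower beside 11.7%. With this block 4.46% of all genes (649) had an adjusted p below 0.05, and none of the inhibitors did. Nothing says whether the 2 arrays of a group come from separate infections or cultures, so p-values measure only the spread between these arrays, which may be technical. Without the block that spread includes the change from 48 h to 96 h, since the 2 arrays of a group differ in time and scan. With the block it is how far the shRNA difference changes between the time points. For SOCS1 the SE was 0.30 without the block and 0.17 with it.

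CISH, an SH2 protein induced by STAT5 that shuts off its own receptors, had the largest fold change of the 10. The control arrays read 271 (48 h) and 259 (96 h) and the ALKBH3 arrays 384 and 476, so that both ALKBH3 arrays were the high ones. After centring the signal was 1.33-fold higher at 48 h and 1.80-fold higher at 96 h. Over the 4 arrays this was 0.63 on the log2 scale (SE 0.15, 95% interval 0.23 to 1.03, limma adjusted p = 0.412, or adjusted p = 0.0778 with the time point as a block). At 96 h CISH was the only inhibitor with a signal at least 1.5-fold higher, as were 4.43% of all genes. Its unadjusted p was no longer below 0.05 without the control array of 96 h (log2 fold change 0.54) or without the ALKBH3 array of 96 h (0.51).

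SOCS1, which binds JAKs directly and is the main brake on interferon signalling, had its larger difference at 48 h. The control arrays read 226 (48 h) and 218 (96 h) and the ALKBH3 arrays 435 and 259. The ALKBH3 array of 48 h stood apart from the other 3. SOCS1 was the only inhibitor at least 1.5-fold higher at 48 h, as were 5.1% of all genes. After centring the signal was 1.81-fold higher at 48 h and 1.16-fold higher at 96 h, and over the 4 arrays the difference was 0.53 on the log2 scale (SE 0.30, 95% interval -0.26 to 1.33, limma adjusted p = 0.750). At 96 h the difference depended on the processing: it was 0.21, but -0.0019 with normexp correction and 0.0018 in the values that the authors had normalized, whereas at 48 h these gave 0.68 and 0.80. The value over the 4 arrays was 0.34 with normexp correction, 0.13 without the ALKBH3 array of 48 h and 0.94 without that of 96 h, where its unadjusted limma p was below 0.05. With the time point as a block its unadjusted p was below 0.05 as well and the limma adjusted p = 0.159.

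SOCS2, a regulator of growth hormone signalling, was higher with ALKBH3 shRNA at both time points. The control arrays read 6698 (48 h) and 7672 (96 h) and the ALKBH3 arrays 9141 and 11635, with no overlap. On the log2 scale the difference was 0.36 at 48 h, 0.57 at 96 h and 0.46 over the 4 arrays (SE 0.15, 95% interval 0.08 to 0.85, limma adjusted p = 0.536, or adjusted p = 0.0734 with the time point as a block). Its unadjusted p was no longer below 0.05 without the control array of 48 h (0.43), without that of 96 h (0.50) or without the ALKBH3 array of 96 h (0.32).

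SOCS3, which inhibits receptors that signal through gp130, followed the same order of arrays. The control arrays read 1034 (48 h) and 1250 (96 h) and the ALKBH3 arrays 1324 and 1723. On the log2 scale SOCS3 differed by 0.27 at 48 h, 0.43 at 96 h and 0.35 over the 4 arrays (SE 0.16, 95% interval -0.07 to 0.77, limma adjusted p = 0.680, or adjusted p = 0.103 with the time point as a block). The last value was 0.51 without the ALKBH3 array of 48 h and 0.19 without that of 96 h.

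SOCS4 and SOCS5, which belong to the less studied branch of the family and act on the EGF receptor among others, did not share this pattern. SOCS4 gave 8133 (48 h) and 8899 (96 h) on the control arrays and 7640 and 8751 on the ALKBH3 arrays, a log2 difference of -0.12 (SE 0.12, 95% interval -0.43 to 0.19). The arrays with ALKBH3 shRNA were the lower ones after centring, and the difference was -0.05 without the ALKBH3 array of 48 h and -0.18 without that of 96 h. SOCS5 gave 1343 (48 h) and 1739 (96 h) on the control arrays and 1573 and 1623 on the ALKBH3 arrays, which is higher at the first time and lower at the second, and its log2 fold change over the arrays was 0.0034 (SE 0.14, 95% interval -0.36 to 0.37).

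PIAS1 and PIAS4, SUMO ligases that restrain STATs, differed little between the shRNAs. PIAS1 gave 421 (48 h) and 409 (96 h) on the control arrays and 468 and 440 on the ALKBH3 arrays, with a log2 fold change of 0.07 at each time point (0.07 over the arrays, SE 0.13, 95% interval -0.28 to 0.42). PIAS4 gave 259 and 242 on the control arrays and 247 and 278 on the ALKBH3 arrays, a log2 difference of -0.16 at the first time and 0.17 at the second, where normexp correction gave -0.08. Over the arrays PIAS4 came to 0.0067 (SE 0.14, 95% interval -0.36 to 0.37). The intervals of both leave room for differences of up to 0.42 log2 units upward and 0.36 downward.

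PTPN2, a phosphatase that acts on JAK1 and JAK3, was measured by 3 probes on different transcripts. The brightest gave 5702 (48 h) and 6958 (96 h) on the control arrays and 4776 and 6697 on the ALKBH3 arrays, a log2 difference of -0.22 (SE 0.19, 95% interval -0.71 to 0.28). Without the ALKBH3 array of 48 h this was -0.0058, without that of 96 h -0.43, and without the control array of 96 h -0.13. The second gave 1302 and 1462 on the control arrays and 1053 and 1362 on the ALKBH3 arrays, with -0.27. The third gave 344 and 383 on the control arrays and 341 and 442 on the ALKBH3 arrays, with 0.04, so the probes of this gene had different signs at 96 h. PTPN6, a phosphatase best known from blood cells, had 10 spots on each array, which shows how far the spots of 1 probe scatter. On the control arrays their mean intensity was 293 ± 13.0 (48 h; SD over 10 spots) and 295 ± 17.5 (96 h), and on the ALKBH3 arrays 330 ± 14.5 and 313 ± 18.1. The log2 fold change was 0.07 (SE 0.13, 95% interval -0.27 to 0.40). The spots of 1 array are technical repeats and do not count as replicates of a shRNA.

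**Figure D2:**
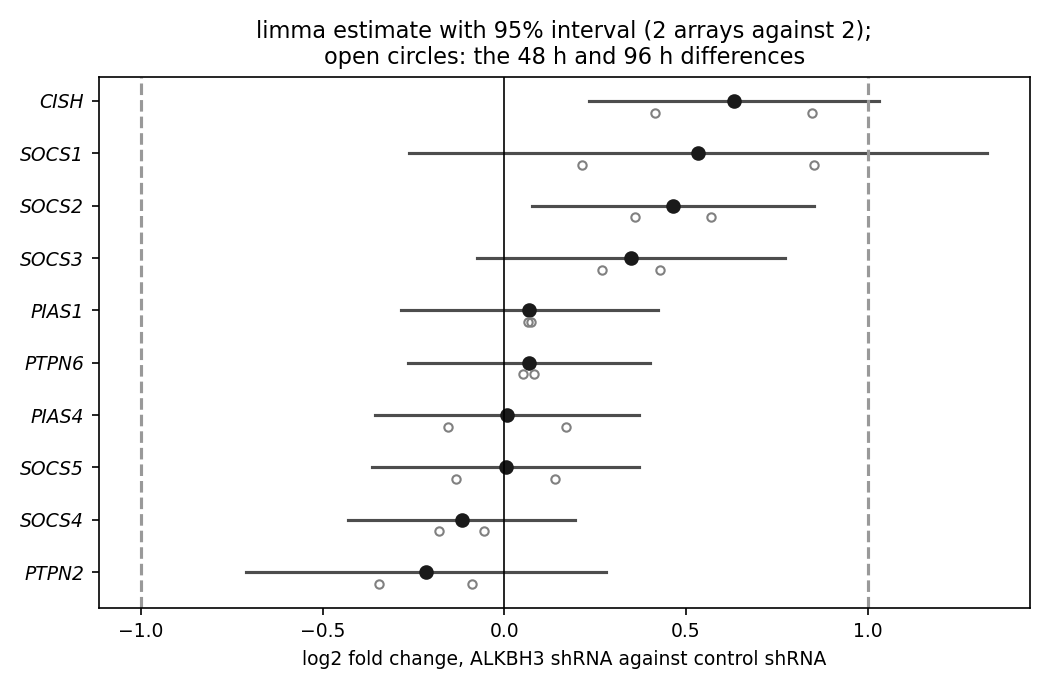
Log2 fold change of each inhibitor, ALKBH3 shRNA against control shRNA, with 2 arrays in each group (horizontal axis; filled points are the limma estimate, bars its 95% interval, open circles the differences at 48 h and 96 h, and dashed lines mark 2-fold). The intervals of CISH (0.23 to 1.03) and SOCS2 (0.08 to 0.85) lie above 0, those of the other 8 include 0. They come from the fit without the time point as a block.

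Within each shRNA, only SOCS1 in the cells with ALKBH3 shRNA changed by at least 1.5-fold from 48 h to 96 h. The median size of this change over all genes was 0.18 log2 units with control shRNA and 0.19 with ALKBH3 shRNA. No inhibitor was 2-fold different between the shRNAs at 48 h (2.17% of all genes were) or at 96 h (1.89%). With control shRNA none changed by 1.5-fold from 48 h to 96 h, as 8.02% of all genes did, and the log2 differences ran from -0.22 for PIAS4 to 0.25 for SOCS5. With ALKBH3 shRNA SOCS1 was lower at 96 h by a fold change of 0.57, or -0.82 on the log2 scale, and 5.86% of all genes were at least 1.5-fold lower. No inhibitor was 1.5-fold higher at 96 h (3.81% of all genes were), and PTPN2 came closest, at 0.42. With 10 genes, counts of 0 and 1 do not set the inhibitors apart from these shares of all genes. The same SOCS1 difference was -0.18 with control shRNA. CISH moved the other way, with 0.24 in the cells with ALKBH3 shRNA and -0.19 in those with control shRNA, and SOCS2 and SOCS3 were higher at 96 h in both. Each of these values sets a single array against another and is untested.

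**Figure D3:**
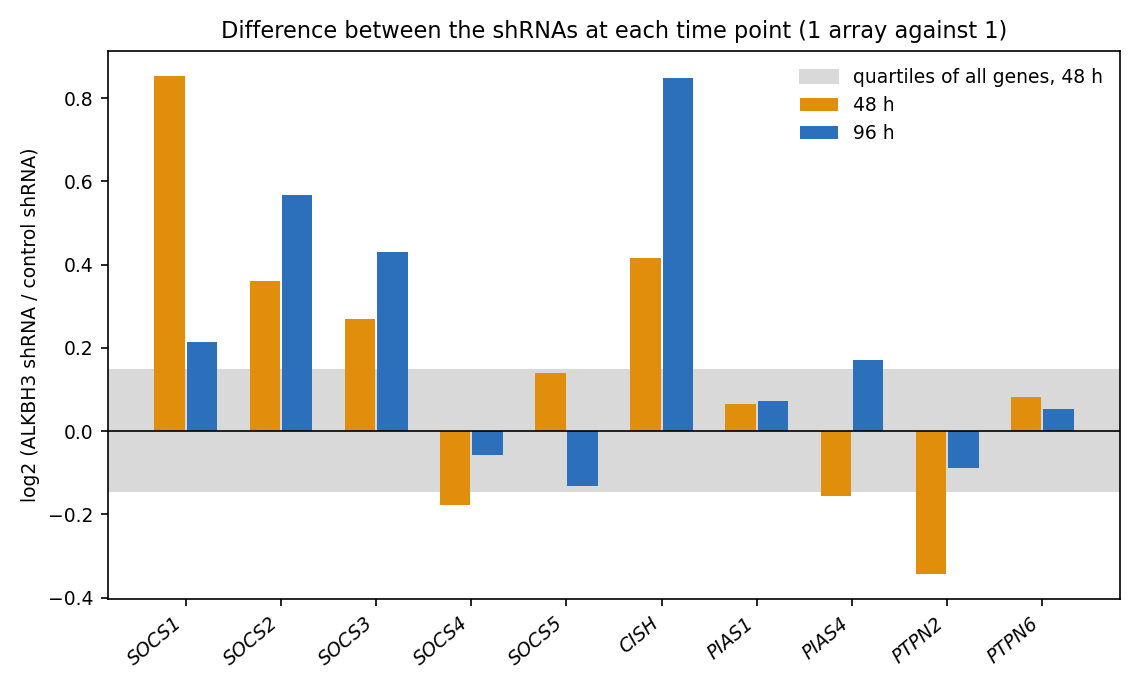
Log2 ratio of ALKBH3 shRNA to control shRNA for each inhibitor at 48 h (left bar of each pair) and 96 h (right bar), 1 array against 1 array, with no error because there is no replicate within a time point. The grey band runs from the lower to the upper quartile of all genes at 48 h, from -0.14 to 0.15. The SOCS1 bar falls from 0.85 to 0.21 and the CISH bar goes from 0.41 to 0.85.

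Over all 4 arrays, 96 h against 48 h was also fitted with limma. No inhibitor passed the 2-fold and unadjusted p cutoffs, which 0.783% of genes passed, and none had an unadjusted p below 0.05, as 18.4% of genes had. No gene had an adjusted p below 0.05 (0%). With the shRNA as a block 35% of all genes had an unadjusted p below 0.05, and SOCS1 (-0.50), SOCS3 (0.23) and PTPN2 (0.29) were among them. In this fit 12.8% of all genes had an adjusted p below 0.05 and no inhibitor did.

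The rest of the pathway was read through lists of genes chosen for their roles. Of the 11 interferon target genes 11 had a positive log2 fold change over the 4 arrays, with a median of 1.42 beside -0.0030 over all genes, and IFI44, IFI6, IFIT1, IFIT3, MX1 and OAS1 passed the cutoffs, all higher. Their median difference was 1.85 at 48 h and 0.99 at 96 h, and from 48 h to 96 h it changed by -1.42 with ALKBH3 shRNA and by -0.46 with control shRNA. SOCS1 showed the same order, higher at 48 h than at 96 h, and CISH the reverse. The part of the interferon response in either was not tested.

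The list labelled other inhibitors held 14 regulators of the pathway, not all of which are inhibitors (NMI, SH2B1 and STAM are not). Of the 14, 13 were tested, 4 with a higher and 9 with a lower log2 value and none past the cutoffs. USP18, which blocks the interferon receptor and is itself induced by interferon, had the largest, 1.08, with 1.65 at 48 h and 0.51 at 96 h (limma adjusted p = 0.708). NMI, which binds STATs and is not an inhibitor of them, had 0.85, and PTPN1, a phosphatase of JAK2 and TYK2, had -0.25. The 4 JAK kinases were tested and none passed, TYK2 at -0.23, JAK3 at 0.08 and JAK2 at 0.04. Of 10 genes known as STAT3 or STAT5 targets 9 were tested, of which 2 had a higher and 7 a lower log2 value and none passed the cutoffs, and their median log2 fold change was -0.09. BCL6, a repressor of transcription, had -0.62 (limma adjusted p = 0.0439 with the time point as a block) and MYC 0.20.

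Of the receptors, 23 of 26 were tested and IL22RA1, the receptor for interleukin 22, passed the cutoffs at 1.21. IL7R had 1.44 (limma adjusted p = 0.606, or adjusted p = 0.0440 with the time point as a block) and IFNLR1 0.71 (adjusted p = 0.0423 with the block). Of the ligands, 14 of 25 were tested, and CSF2, which encodes GM-CSF and signals through STAT5, was higher by 2.58 (SE 0.23). IL24 was higher by 1.18 and CSF3 had -1.09. All passed the cutoffs, each with a limma adjusted p = 0.0264 with the time point as a block. IL24 and CSF3 were well above background on only 3 of the 4 arrays. IL24 was lowest on the control array of 96 h (centred log2 signal -7.11) and CSF3 on the ALKBH3 array of 96 h (-6.52). Their fold changes and p-values therefore set signal against values near background. CSF2 differed by 2.27 at 48 h and by 2.89 at 96 h, each from 1 array against 1 array. The order of these values is that of CISH, and a link between CSF2 and CISH was not tested. Of the GM-CSF receptor genes, CSF2RA was well above background on none of the arrays, with intensities of 4.61 to 11.2. CSF2RB was well above background on all 4, with a log2 fold change of -0.09. IFNB1, interferon beta, was well above background only on the ALKBH3 array of 48 h, at an intensity of 52.4, against 10.9 to 18.8 on the other 3 arrays.

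PC3 cells are known to lack the STAT3 gene. On these arrays STAT3, STAT5A and STAT5B were well above background on none, with intensities of 4.65 to 13.6, while the lowest signal counted as well above background was 21.0 to 28.8. STAT2 had a log2 fold change of 0.41 and IRF9 of 0.37. Of the 8 genes in the list of STAT factors and IRF9, 5 were tested and none passed the cutoffs. CISH, SOCS1, SOCS2 and SOCS3, known targets of STAT3 or STAT5 in other cells, were well above background on all 4 arrays.

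**Figure D4:**
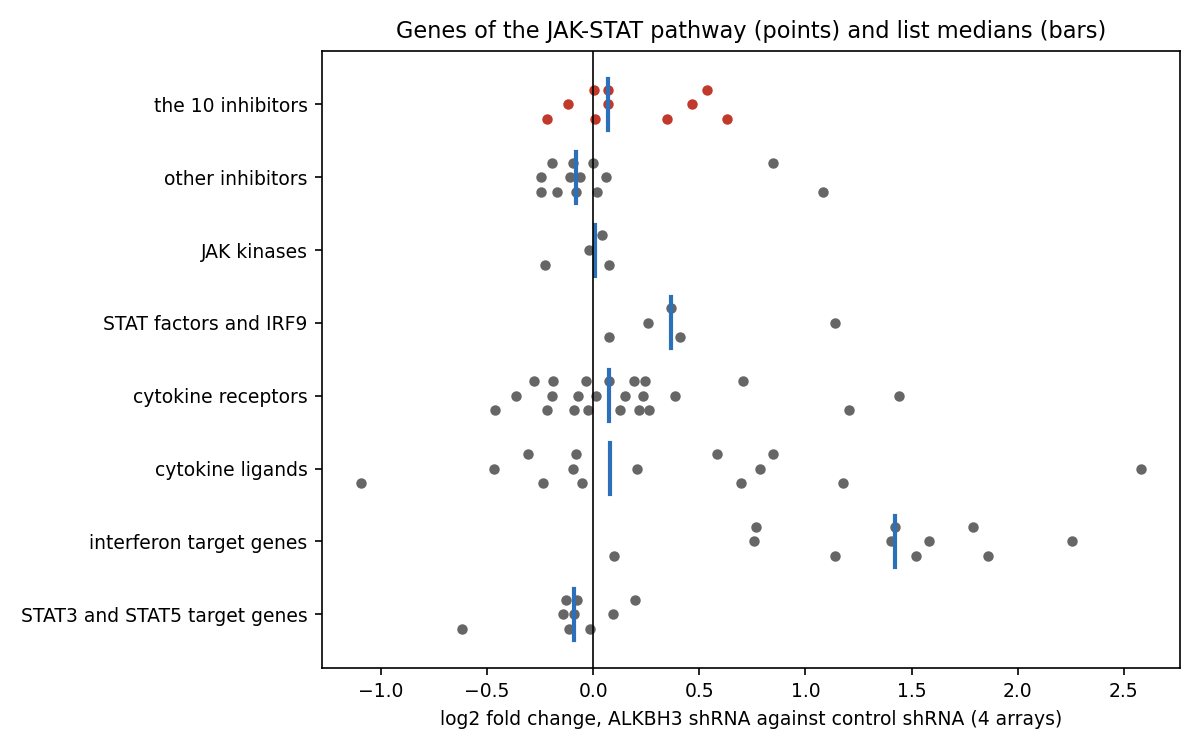
Log2 fold change, ALKBH3 shRNA against control shRNA over the 4 arrays (horizontal axis), for the tested genes of each list (points, spread vertically only for sight) and the median of the list (bars). The 10 inhibitors lie between -0.22 and 0.63 around a median of 0.07, and the interferon target genes around 1.42.

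Over the 4 arrays FBXW10B, S1PR1 and INPP5D had the signal most like that of CISH after each gene was centred on its mean, with a root mean square difference of 0.02391, 0.02561 and 0.02792 log2 units. S1PR1 encodes a sphingosine phosphate receptor and INPP5D an inositol phosphatase. With 4 arrays, of which those of a time share a scan, such a likeness is weak, and 55 genes lay within 0.1 log2 units of CISH.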

How the data were processed

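RNA from PC3 cells was hybridised to 4 single-colour Agilent arrays, 1 for each shRNA (ALKBH3 or GFP) and time (48 h or 96 h). The authors deposited spot intensity values that Agilent Feature Extraction (version 10.7.3.1 in the file headers; the methods name another version) had background-subtracted on each array, and a table of log2 values that the authors had normalized between arrays with limma, used here as an alternative. The members and gene lists were chosen with earlier results of these data known.

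Control and marked spots (180 to 379 of 44495 per array) were left out, log2 intensity was centred on the 75th percentile, with the mean taken over spots of the same probe. A probe was tested if at least 0.5 of its spots were well above background on both control arrays or on both ALKBH3 arrays, with the brightest probe for a gene. Of 34127 probes, 24910 were named through accessions in the RefSeq gene table of GRCh38.p14. The fits used limma 3.58.1 in R 4.3.3 (lmFit and eBayes without a covariate, Benjamini-Hochberg over 14556 genes), with cutoffs of 2-fold and an unadjusted p below 0.05. Spots of 999 replicated probes scattered by 0.08497 to 0.09668 (SD, log2), and precision is limited by the number of arrays.

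The time points pair the arrays, since both arrays of a time share a scan, and same-time deviations correlated at r = 0.703 across genes. The fits were tested on simulated data. The text names all 10 members, ALKBH3, genes of each list past the cutoffs or otherwise up to 3 with the largest fold change, the cell type markers, and the 3 genes most like CISH. IFNB1, CSF2RA, CSF2RB, SOCS6, SOCS7, PIAS2, PIAS3 and the genes beside STAT3 were chosen after their values were seen. Some genes of these lists are not reported here. The alternatives were normexp (offset 50, on the median spot signal), quantile normalization, both together, median centring, the percentile over detected probes, the authors' values, no filter, a filter on all 4 arrays, the mean of probes, probes in place of genes, the time point (or shRNA) as a block, a 1.5-fold cutoff, the methods' t-test and leaving out each array. ChIP-seq data are not analysed here.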

Additional observations from a re-analysis of the deposited data

Results flagged for a closer look

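SOCS5, PIAS4 and CISH had differences of opposite sign under the same comparison, each of 1 array against 1 array, and none of these differences between differences was tested. ALKBH3 shRNA against control shRNA gave SOCS5 0.1398 at 48 h and -0.1329 at 96 h on the log2 scale, and PIAS4 -0.1563 at 48 h and 0.1696 at 96 h. From 48 h to 96 h CISH changed by 0.2437 with ALKBH3 shRNA and by -0.1886 with control shRNA. SOCS5 changed by -0.02206 with ALKBH3 shRNA and by 0.2507 with control shRNA, and PIAS4 by 0.1064 and by -0.2194. With normexp background correction the sign of PIAS4 at 96 h turned (-0.08333), as did its change with ALKBH3 shRNA (-0.1216), and with median centring SOCS5 changed by 0.04093 with ALKBH3 shRNA.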

How the results depend on the processing

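No inhibitor passed the 2-fold cutoffs or an adjusted p below 0.05 under any of the alternatives, while 0 genes of the whole table passed the adjusted p under all of them but the block (649 genes). With a 1.5-fold cutoff 1 inhibitor was past it in each of 4 comparisons, CISH over the 4 arrays and at 96 h, SOCS1 at 48 h and from 48 h to 96 h within ALKBH3 shRNA, and 0 in 96 h against 48 h over the 4 arrays and within control shRNA. The median log2 fold change of the 10 (0.0682) was 0.04884 with normexp, 0.04661 with quantile normalization, 0.04532 with both, 0.03923 with median centring, 0.08721 with the percentile over detected probes, 0.05043 with the authors' values and 0.02744 to 0.1436 without each array in turn. SOCS5 (0.0034) came to -0.0517 with normexp, -0.04089 with normexp and quantile normalization, -0.02555 with median centring and -0.04238 with the authors' values, and ran from -0.1219 to 0.1288 without each array. PIAS4 (0.0067) came to -0.1327, -0.1283, -0.02233 and -0.1519 under the same 4 and to -0.01403 with quantile normalization, and ran from -0.1031 to 0.1164. Without each array PIAS1 ran from -0.01287 to 0.1509 and PTPN6 from -0.004984 to 0.1398. The cause was not tested for any of these.

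With the time point as a replicate block the fold changes were the same by construction, SOCS1 (0.534) and SOCS3 (0.3491) passed an unadjusted limma p below 0.05, and 193 genes were higher and 40 lower past the cutoffs, against 151 and 34. The count of higher genes was 63 with normexp and 45 with the methods' t-test, under which neither CISH nor SOCS2 passed an unadjusted p below 0.05 (0 of the 10 did). It was 88 with the authors' values, 276 with no filter, 415 with the 1.5-fold cutoff and 381 without the ALKBH3 array of 96 h. SOCS2 also lost that call with median centring, at 0.435 on the log2 scale. CISH, SOCS1, SOCS2, SOCS3, SOCS4 and PTPN2 kept the sign of their log2 fold change under every alternative run, though PTPN2 came to -0.005793 without the ALKBH3 array of 48 h and 1 of its 3 probes had 0.04. SOCS1 at 96 h ran from -0.001911 to 0.2378 over the alternatives that change values, and from -0.9223 to -0.7523 from 48 h to 96 h with ALKBH3 shRNA.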

Other observations

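In the order of genes in the RefSeq table, the near neighbours of STAT3, STAT5A and STAT5B on the arrays fell into measured and not measured genes. KAT2A, RAB5C and GHDC were well above background on none of the 4 arrays, with intensities of 6.7 to 16.5 for KAT2A, 13.9 to 24.9 for RAB5C and 5.96 to 13.9 for GHDC. CAVIN1, next to STAT3 on the other side, read between 116000 and 142000. Between these lay HSPB9 (70.9 to 109) and KCNH4 (33.3 to 55), both well above background on all 4 arrays, and HCRT on 3. ATP6V0A1, which follows CAVIN1, read 17.1 to 67.3 and was well above background on 3 arrays, and NAGLU after it read 1990 to 3010.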
